A study of Mus musculus with 51 samples.

Results

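The 6 unspiked arrays of a spike-in experiment, replicates 4 to 6 set against replicates 1 to 3, are described here out of 51 arrays in the series. They were chosen by their labelled amount of spike, 0 pmol, and by their replicate number. Both channels of every one of the 6 arrays carried total RNA of the same mouse hybridoma, so the comparison asks how far repeated measurements of one RNA against itself differed between both sets of 3 arrays. The RNA came from CRL1606, a cell line of the American Type Culture Collection that was made by fusing spleen cells of immunised BALB/c mice with the BALB/c myeloma P3-X63-Ag8. It secretes a monoclonal antibody that binds human fibronectin, and it was grown in suspension in shake flasks in a serum-free medium based on IMDM. The labels name no treatment, genotype or time that distinguished the groups, and the other 45 arrays carried added transcripts at 0.025 to 2 pmol. What set replicates 4 to 6 apart from replicates 1 to 3 is not in the labels, and separate flasks of cells are not named for them. The p-values therefore measure the spread between these arrays, which may be technical.

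A hybridoma joins an antibody-producing B cell to an immortal plasma cell tumour and makes large amounts of one immunoglobulin. In a self-hybridisation, one RNA is labelled with both dyes and competes with itself for each printed probe, so that a probe without dye or position effects gives equal signal in both channels. A ratio between the channels carries no expression level, and the labelled cell type could therefore not be checked against its markers here. A positive value is one deposited as positive; which channel is the numerator was not given in the sources used here.

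Each array held 16896 spots in 48 print blocks of 352 spots, in rows of 22. Spots 22 places apart formed pairs: of 8448 pairs, 5458 carried one accession on both spots and 0 carried different ones. Leaving out 528 pairs at 11 control positions, 7920 features remained, of which 5348 had 1 gene symbol. The deposited values are log2 ratios with an upper limit of 16.61, the log2 of 100000, and values at that limit were treated as missing. Each array was centred on its median and paired spots were averaged. Of the 7920 features, 7859 were measured on at least 2 arrays of each set, and 7338 on all 6.

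The ratios were coarser, more spread and less negative on replicates 4 to 6. Before centring, the array medians were -2.18, -3.11 and -2.62 on replicates 1 to 3 and -1.07, -1.46 and -1.27 on replicates 4 to 6 (log2 ratio; -2.63 ± 0.47 against -1.27 ± 0.19, SD, n = 3 each, exact permutation p = 0.1, two-sided). With 3 arrays against 3, 0.1 is the smallest p that this test can give. The median absolute deviation was 0.256, 0.278 and 0.327 on replicates 1 to 3, and 0.462, 0.500 and 0.479 on replicates 4 to 6 (exact permutation p = 0.1). Neither measure overlapped between the sets. Over 11 such array measures, the Benjamini-Hochberg adjusted value of the permutation p was 0.138 at its smallest.

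The fineness of the values was measured by how many fell on a grid of ratios of small whole numbers. A value was counted as on the grid where, to 3 decimals, it equalled the log2 ratio of whole numbers from 1 to 20. On replicates 1 to 3 such values made up 3.60%, 1.99% and 3.30% of measured spots, and on replicates 4 to 6 they made up 33.4%, 34.4% and 32.3% (2.96 ± 0.86% against 33.4 ± 1.02%, SD, n = 3 each, exact permutation p = 0.1). Spots deposited at the upper limit numbered 2, 6 and 3 on replicates 1 to 3 and 131, 128 and 130 on replicates 4 to 6, control spots left out. Spots deposited at exactly 0 numbered 5, 3 and 3 against 218, 167 and 167. All 3 measures separated the sets without overlap.

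Agreement between paired spots was also measured. Their correlation over features was 0.705, 0.713 and 0.617 on replicates 1 to 3 and 0.785, 0.805 and 0.788 on replicates 4 to 6 (exact permutation p = 0.1). That order depended on which spots entered: the mean correlation of replicates 4 to 6 minus that of replicates 1 to 3 was 0.115, but -0.217 with the upper limit kept as a value and -0.00703 with control spots included. The median absolute difference between paired spots overlapped between the sets, at 0.137 to 0.195 and 0.161 to 0.178 log2 (exact permutation p = 0.6). Spots without a deposited value also overlapped, with 92, 466 and 743 against 309, 295 and 412 (exact permutation p = 0.7). Correlations between arrays over features ranged from 0.308 to 0.446 within replicates 1 to 3, from 0.723 to 0.754 within replicates 4 to 6 and from 0.185 to 0.314 for the 9 pairs across sets. The lowest pair of replicates 1 to 3 thus lay within the range across sets.

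**Figure D1:**
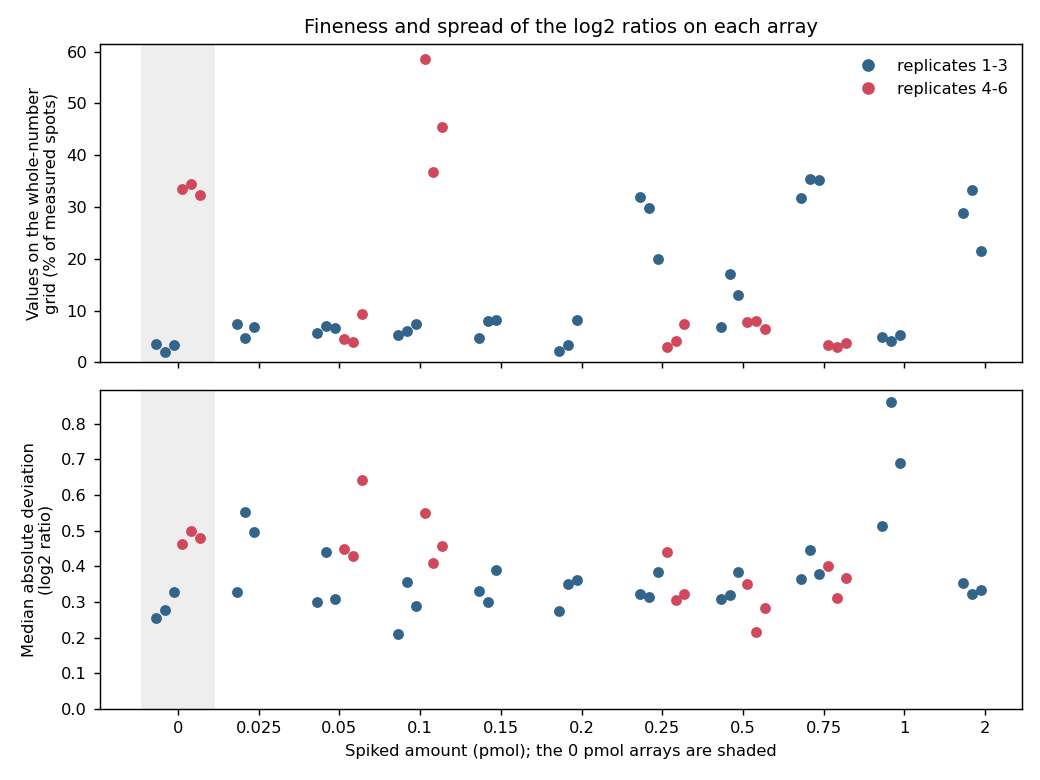
The upper panel plots the percent of measured spots on the whole-number grid and the lower panel the median absolute deviation of the log2 ratios, 1 point an array, against the spiked amount in pmol, with the 0 pmol arrays shaded. On the shaded arrays the grid share was 1.99 to 3.60% in replicates 1 to 3 and 32.3 to 34.4% in replicates 4 to 6; the set with the higher share was not the same at every spiked amount.

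With no spike in either group, 1495 of 7859 features (19.0%) differed between replicates 4 to 6 and replicates 1 to 3 (limma, Benjamini-Hochberg adjusted p under 0.05). The ratio was higher in replicates 4 to 6 for 830 (10.6%) and lower for 665 (8.46%). The larger differences were mostly negative: 146 called features differed by 1 log2 unit or more upward and 353 downward (6.35% of those tested together), and 7 and 41 differed by 2 or more (0.611% together). The median absolute difference was 0.42 over all features and 0.84 over the called ones, against a median SD within a set of 0.211 for replicates 1 to 3 and 0.185 for replicates 4 to 6. The 3 arrays of one set lay wholly above the 3 of the other for 3498 of 7338 features measured on all 6 (47.7%). Features with a symbol were called in 998 of 5324 cases (18.7%) and those without in 497 of 2535 (19.6%).

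The number of calls depended on single arrays. It was 0 without replicate 5 and 3 without replicate 1 (limma, adjusted p under 0.05; 2392 and 2401 features had an unadjusted p under 0.05). Without replicates 6, 4, 2 and 3 it was 266, 576, 678 and 935. In a fit of all 51 arrays, which borrows its spread from the whole series, 472 features were called, 337 of them among the 1495. Scaling each array to one spread left 561 calls, of which 43.3% were positive against 55.5% before scaling.

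The genes given next lead among called features with a symbol that were measured on all 6 arrays without overlap of the sets; over all tested features, the largest absolute difference that was not called was 3.67. The most positive of these genes was Kirrel3, a cell adhesion protein of the immunoglobulin superfamily. Its probe at spot 2825 read -1.76, -1.37 and -3.18 on replicates 1 to 3 and 1.07, 1.46 and 0.50 on replicates 4 to 6 (difference 3.12, SE 0.51, limma adjusted p = 0.0206). All 3 arrays of the first set were negative and all 3 of the second positive. A second Kirrel3 probe, at spot 7133, differed by 0.08 and was not called (limma adjusted p = 0.723). Trp53i13, a p53-induced membrane protein, read -2.85, -2.83 and -1.95 against 0.42, 0.07 and -0.01 (difference 2.70, SE 0.29, limma adjusted p = 0.0173). Zcchc14, a zinc knuckle protein, read -0.31, -0.48 and -0.79 against 1.07, 1.46 and 1.19 (difference 1.77, SE 0.18).

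The next of the 12 most positive are given by role. Brca2, which loads the recombinase onto broken DNA, read -0.70, -1.02 and -2.02 against 0.73, 0.03 and 0.44 (difference 1.65, SE 0.38). Rif1, which protects DNA ends and times replication, read -1.33, -1.12 and -0.85 against 0.29, 0.40 and 0.35 (difference 1.45, SE 0.16). Cblb, a ubiquitin ligase that restrains antigen receptor signalling, read -0.78, -1.15 and -0.53 against 0.62, 0.86 and 0.63 (difference 1.53, SE 0.19). For these 3 probes the sets lay on opposite sides of the array median. A second Cblb probe, at spot 1429, differed by -0.19 and was not called (limma adjusted p = 0.499). Bcl11a, a transcription factor of early B cells, read -0.47, -0.92 and -0.19 against 0.65, 0.89 and 1.04 (difference 1.39, SE 0.22).

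Mef2c, a transcription factor of muscle and B cells, shows how far probes of one gene disagreed. At spot 4492 it read -0.38, -0.18 and -0.25 against 1.38, 1.64 and 0.74 (difference 1.52, SE 0.25). Of its 8 other probes, 1 was called, with a difference of 1.08, and the rest lay between -0.36 and 0.36. Grip1, a synaptic scaffold protein, differed by 1.54 at spot 11887 and by 0.38 at a second probe that was not called. Adgrl3, an adhesion receptor of neurons, differed by 1.67 at spot 8637 and by 0.89 at spot 12868, both called, and by 0.32 and 0.40 at its other probes, which were not. Ptar1, a subunit of a protein prenyltransferase, and Slc12a1, the sodium-potassium-chloride carrier of the kidney, completed the 12 with differences of 1.44 and 1.38. A second Slc12a1 probe differed by 0.23 and was not called.

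Some of these probes rested on spots deposited with equal signal in both channels. Of the 6 spots behind a mean of replicates 4 to 6, 2 were deposited at exactly 0 for Kirrel3, 2 for Zcchc14, 1 for Brca2 and 1 for Bcl11a. After centring, a deposited 0 becomes the array's median with its sign turned. On replicates 4 and 5, Kirrel3 and Zcchc14 shared the values 1.07 and 1.46 in this way, each from 1 spot, because the paired spot was empty or at the upper limit. The part of the whole-number grid in these differences was not tested. Keeping the upper limit as a value ended the calls of Kirrel3, Zcchc14 and Brca2 and raised their differences to 5.88, 4.53 and 4.65 (limma adjusted p = 0.173, 0.220 and 0.233). It also ended the calls of Adgrl3, Ptar1 and Slc12a1, whose differences it left at 1.66, 1.43 and 1.38. The most positive feature chosen in the same way had no symbol, at spot 4273, with a difference of 3.84, and it had 2 such spots. The second without a symbol, at spot 1498, differed by 2.08 and had 3.

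The most negative of the genes chosen in this way was Crtc3, a coactivator of CREB. It read 0.59, 4.11 and 3.94 on replicates 1 to 3 and -0.22, -1.05 and -0.93 on replicates 4 to 6 (difference -3.61, SE 0.95, limma adjusted p = 0.0471). Replicate 1 lay far below the other arrays of its set, and the sets did not overlap. Dlk2, a transmembrane relative of the Notch ligands, read 0.92, 0.23 and 0.99 against -2.09, -2.60 and -2.50 (difference -3.11, SE 0.26, limma adjusted p = 0.0173).

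The other 10 of the 12 most negative named probes were all printed in the last column of their block, column 22. Acan, the large proteoglycan of cartilage, read 1.36, 0.63 and 1.25 against -2.35, -2.34 and -0.78 (difference -2.91, SE 0.47). Gtse1, a microtubule protein of dividing cells, read 0.05, 0.57 and 0.37 against -4.05, -1.92 and -1.37 (difference -2.78, SE 0.68). Bmp10, a growth factor of the heart, read 0.65, 0.49 and 0.77 against -2.20, -1.70 and -1.68 (difference -2.49, SE 0.19). In all 3 genes every array of replicates 1 to 3 was positive and every array of replicates 4 to 6 negative. Vegfa, the growth factor of blood vessels, read 0.74, 1.04 and 1.12 against -2.38, -1.23 and -1.45 (difference -2.66, SE 0.32). With the upper limit kept as a value, the Vegfa difference became 0.557 (limma adjusted p = 0.899), and a second Vegfa probe at spot 13787 gave 0.37 (adjusted p = 0.166). The same setting ended the calls of Crtc3, Gtse1 and Hs1bp3, at -3.62, -2.79 and -2.39 (limma adjusted p = 0.0648, 0.0551 and 0.0604). Acrv1 of the sperm acrosome, Tectb of the inner ear, Jmjd6, a hydroxylase, Sprr3 of the cornified epithelium, Dmp1 of bone matrix and Hs1bp3, which binds an actin regulator of lymphocytes, differed by -2.84, -2.68, -2.59, -2.53, -2.48 and -2.38. Lowest among features without a symbol were those at spots 13524 and 13388, which differed by -2.20 and -2.05.

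**Figure D2:**
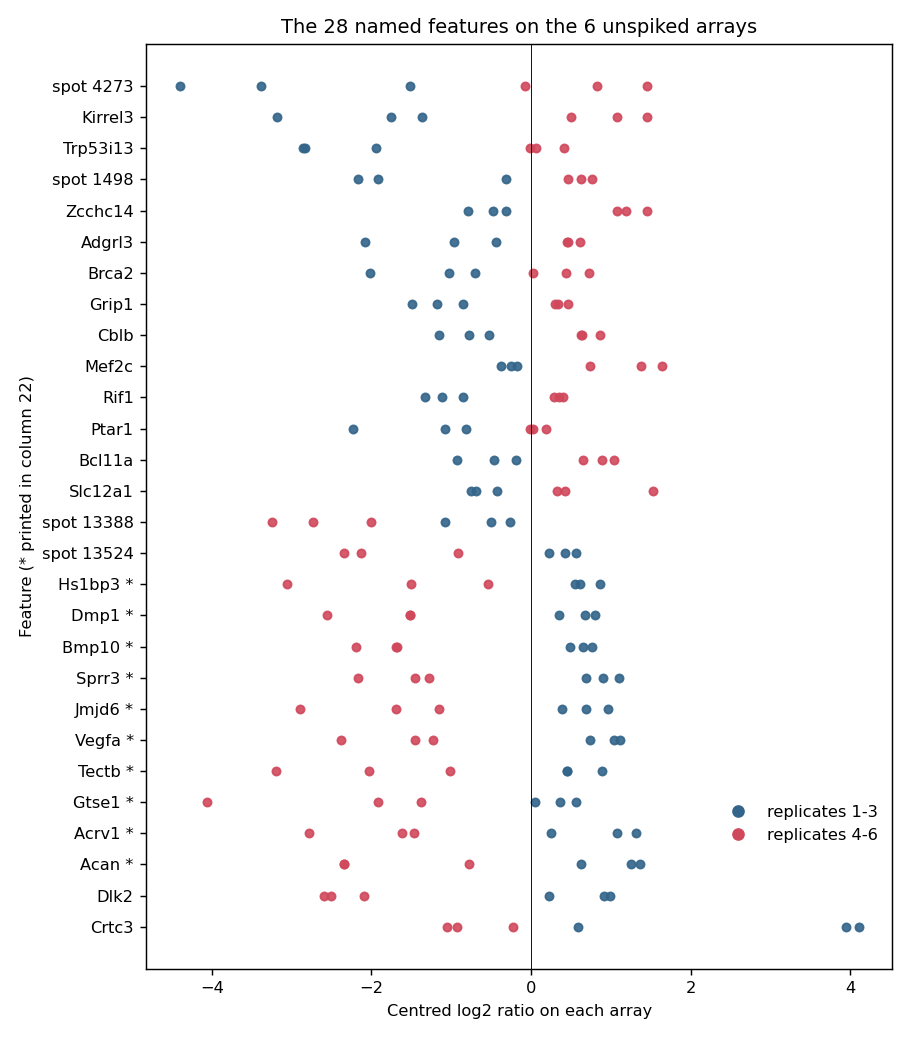
Each point is the centred log2 ratio of 1 of the 28 features on 1 array, with replicates 1 to 3 in blue and replicates 4 to 6 in red, and an asterisk marks a feature of column 22. In all 28 the sets do not overlap, as the rule for naming them required; Kirrel3 spans -3.18 to 1.46 and Crtc3 -1.05 to 4.11.

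Position on the array moved with the difference. Column 22 was singled out after its values were seen and is therefore described without a test across features. Its features had a median, by array, of 0.24, 0.23 and 0.43 on replicates 1 to 3 and of -1.29, -1.12 and -0.89 on replicates 4 to 6. In the neighbouring column 21 the means of these medians were 0.14 ± 0.09 and -0.02 ± 0.04 (SD, n = 3 each). Column 21 thus lay near 0 in replicates 4 to 6. On replicates 1 to 3 its medians were 0.08, 0.25 and 0.11, and on replicate 2 it lay slightly above column 22. The columns parted mainly in replicates 4 to 6. Of 192 features in column 22, 102 were called (53.1%), 100 of them lower in replicates 4 to 6, and they made up 95 of the 353 calls of -1 or below and 31 of the 41 of -2 or below.

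The other columns differed less. In columns 2 to 21 the median difference lay between -0.12 and 0.35 and 12.6 to 24.7% of features were called. Columns 3 to 11 had medians of 0.15 to 0.35, and columns 12 to 21 of -0.12 to 0.13. Column 1 held 40 features, of which 20% were called, with a median difference of -0.45. Dlk2 was printed there, in row 1. Of the 12 most positive named genes, 6 were printed in row 1 of their block. These were Kirrel3, Trp53i13, Zcchc14, Brca2, Ptar1 and Bcl11a. The part of the row in these differences was not tested. Column 22 carried a symbol for 94.8% of its features against 67.1% elsewhere, so lists of named genes drew on it more than unnamed features did. With every column centred, in an alternative chosen after these values were seen, 1223 features were called, and 19 of the 28 features shown by array were still called. Acan, Gtse1, Tectb, Jmjd6 and Hs1bp3 of column 22 then differed by -1.54, -1.41, -1.31, -1.22 and -1.01 and were no longer called. Acrv1, Vegfa, Sprr3, Bmp10 and Dmp1 were still called, at -1.47, -1.29, -1.16, -1.12 and -1.11. The calls of Brca2, Ptar1, Slc12a1 and Crtc3 also ended, with differences of 1.44, 1.18, 1.17 and -3.47. On the 45 spiked arrays the median of column 22 was negative on 41 and ranged from -4.01 to 0.81.

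**Figure D3:**
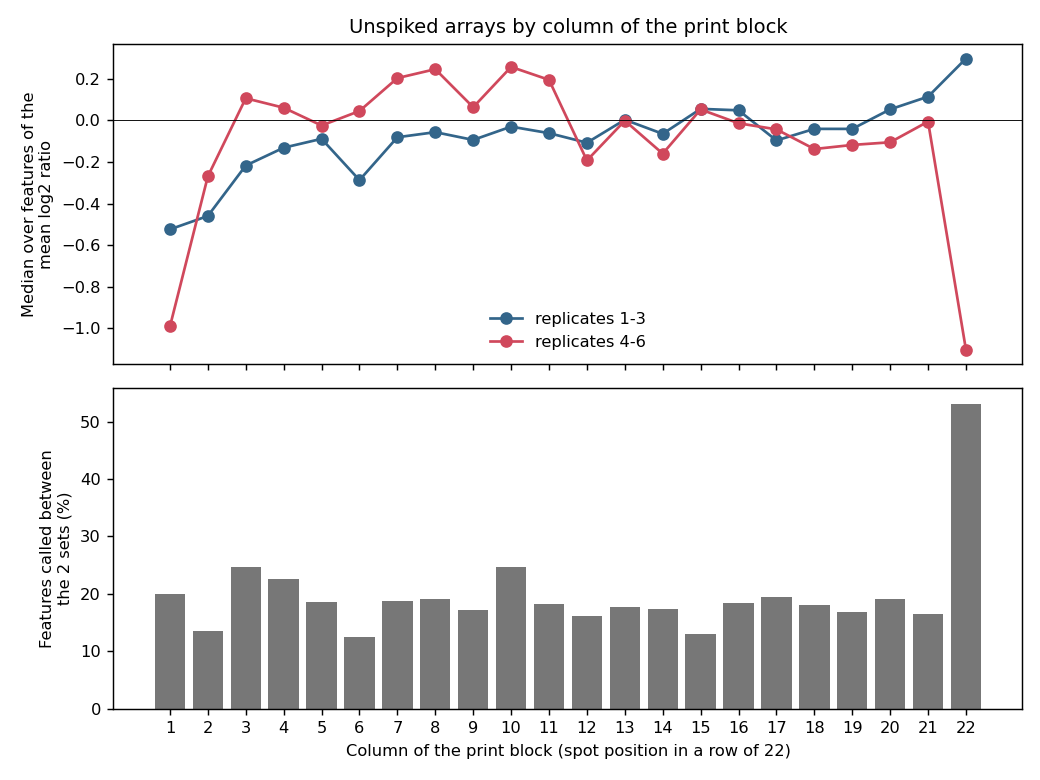
The upper panel plots, for each of the 22 columns of the print block, the median over features of the mean centred log2 ratio in replicates 1 to 3 (blue) and 4 to 6 (red), and the lower panel the percent of features called between the sets. The lines part most at column 22, where 53.1% of features were called.

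Neighbouring features also resembled each other. Across features, the difference correlated at r = 0.198 with that of the next column (7456 pairs of features), at 0.348 with that of the next pair of rows (6778) and at 0.0912 with that 5 columns away (5935). Features are not independent, and neighbours share an array, a block and a printing position. Block medians of the difference ran from -0.19 to 0.51, and the share called from 7.98% in block 1 to 31.3% in block 34. Centring every block gave 1717 calls, 1261 of them among the 1495.

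The direction of the calls differed with the number of values on the whole-number grid. Among 6426 features with all 12 spot values, 1086 had none of their 6 values in replicates 4 to 6 on the grid; 343 of these were called (31.6%), 313 upward and 30 downward, with a median difference of 0.41. With 1 or 2 values on the grid, 669 of 3405 were called (19.6%), 394 upward and 275 downward, with a median of 0.12. With 3 or 4, 284 of 1736 were called (16.4%), 54 upward and 230 downward, with a median of -0.14. With 5 or 6, 37 of 199 were called (18.6%), 6 upward and 31 downward, with a median of -0.12. Upward calls outnumbered downward ones with up to 2 values on the grid, and downward ones outnumbered upward ones with 3 or more. The part of the grid in these counts was not tested.

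Against 0, the array median, replicates 1 to 3 gave 920 called features of 7859 (11.7%; 538 positive, 6.85%, and 382 negative, 4.86%) and replicates 4 to 6 gave 3883 (49.4%; 2043 positive, 26.0%, and 1840 negative, 23.4%), both by limma with adjusted p under 0.05. Both sets called 653 features, which is 71.0% of the calls of replicates 1 to 3 and 16.8% of those of replicates 4 to 6. Of the 653, 411 were positive in both sets, 169 negative in both and 73 of opposite sign. Across features the means of the sets correlated at r = 0.369. Of the 1495 features called between the sets, 925 had means on opposite sides of 0, 1199 were called against 0 in replicates 4 to 6 only, 107 in replicates 1 to 3 only, 133 in both and 56 in neither. The mean lay farther from 0 in replicates 4 to 6 for 1282 of the 1495.

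Some genes deviated the same way in both sets. Nipa2, a magnesium transporter, read 1.80, 2.61 and 2.45 against 1.05, 1.43 and 1.37. Bcl2, the inhibitor of apoptosis, read 1.88 and 2.11 on replicates 1 and 2, was not measured on replicate 3, and read 0.84, 1.06 and 0.92 on replicates 4 to 6. Nedd4, a ubiquitin ligase of membrane proteins, read 2.75 and 2.62 on replicates 1 and 3, was not measured on replicate 2, and read 0.69, 0.67 and 0.73 afterwards. All 3 were positive on every array that measured them and smaller in replicates 4 to 6, by 1.00, 1.05 and 1.99 log2 units, each called. Second probes of Nipa2, Bcl2 and Nedd4 differed by 0.17, 0.55 and 0.39, and none was called. After column centring the call of Nipa2 ended, at -0.95 (limma adjusted p = 0.0507). Scml2, a polycomb protein, was not measured on replicate 3 at spot 10434 and was negative there on every other array. It read -2.43 and -2.01 against -2.22, -1.38 and -1.07, and its difference of 0.66 was not called (limma adjusted p = 0.26). Its second probe read 1.26 on replicate 2, and its difference of -1.70 was not called. Cnpy1, a relative of the endoplasmic reticulum protein canopy, and Kcnc2, a potassium channel, were likewise called negative in both sets. Their differences of 0.71 and 0.66 were not called, and Cnpy1 was not measured on replicate 3. Igbp1, which binds the signalling subunit of the B cell receptor, was called with opposite signs, reading -0.62, -0.38 and -0.94 against 0.51, 0.81 and 0.79; it was 1 of the 2 called features of column 22 that were higher in replicates 4 to 6, and its difference was 1.36, or 2.73 after column centring.

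**Figure D4:**
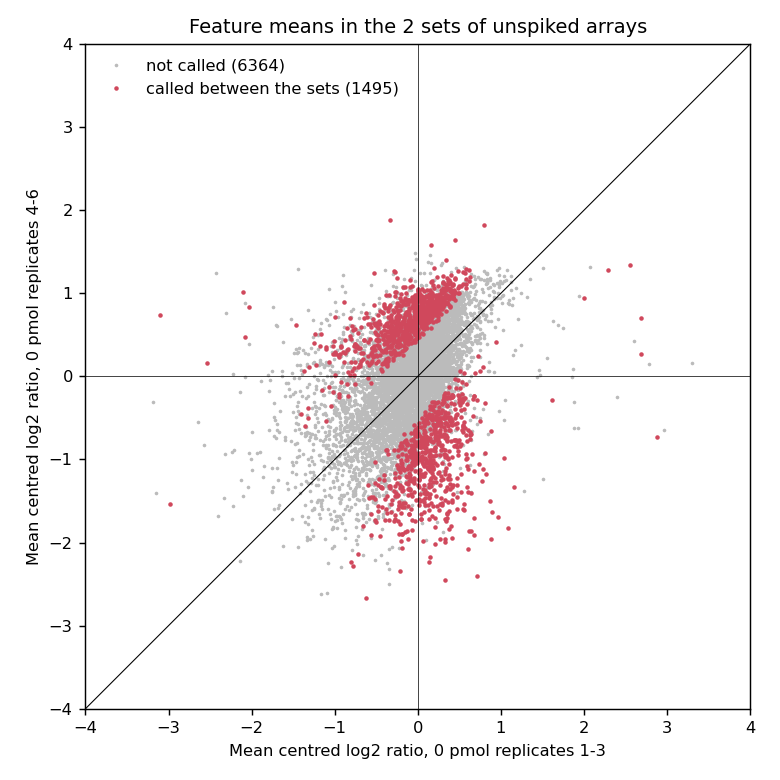
Each point is 1 of 7859 features, plotted by its mean centred log2 ratio in replicates 1 to 3 (horizontal axis) and in replicates 4 to 6 (vertical axis), with the 1495 called features in red and the line of equal values drawn. The called features lie off the line on both sides, and the correlation of the axes is 0.369.

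Groups of genes are described by their counts beside the 19.0% called and the median difference of 0.11 over all features. None of 5 probes of B cell and plasma cell genes, of 9 of proteasome genes or of 9 of markers of liver, muscle, nerve, epithelium and stroma was called. The median differences of these lists were 0.47, -0.14 and -0.13, in the same order. Of 6 probes of T cell, natural killer and myeloid genes, 2 were called, both of Mpo, the neutrophil peroxidase, at 0.92 and -1.13. Of 17 probes for secretory pathway genes, which an antibody-producing cell uses heavily, 3 were called (17.6%), near the share of all features. The median difference of this list was 0.0073, below that of all features. All 3 called probes were higher in replicates 4 to 6. Ern1, the stress sensor of the endoplasmic reticulum, differed by 0.82 and Sel1l of its degradation pathway by 0.69. Sec31a of its export coat differed by 0.63. Second probes of Ern1 and Sel1l differed by 0.09 and -0.16 and were not called. Both called ribosomal probes of 6 were also higher, Rpl24 by 1.18 and Rps12 by 0.52, while a second Rps12 probe differed by -0.0023 and was not called. Of 20 cell cycle probes, 2 were called, Mki67, the proliferation antigen, at -1.27 and Top2a, the topoisomerase of dividing cells, at -1.18. The other Mki67 probe, in column 22, differed by 0.52 and was not called (limma adjusted p = 0.436). The median difference of the 20 cell cycle probes was 0.13.

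Repair and metabolic genes moved in both directions. Of 35 DNA repair probes, 9 were called (25.7%). Higher in replicates 4 to 6 were Brca2, the bypass polymerase Rev1 by 0.86, the checkpoint scaffold Topbp1 by 0.63 and the single-strand break scaffold Xrcc1 by 0.55. Lower were the bypass polymerase Polk by -1.35, the break sensor Nbn by -1.05, Rev3l by -0.87, Xpc by -0.62 and the ligase Lig1 by -0.56. Of 14 glycolysis probes, 3 were called upward, namely the lactate carrier Slc16a1 at 0.71, the hexokinase Hk2 at 0.60 and the phosphofructokinase Pfkp at 0.59. A second probe differed by 0.58 for Slc16a1 and 0.29 for Hk2, the 3 other Pfkp probes by 0.05 to 0.75, and none of them was called. Of 14 probes of oxidative phosphorylation, Atp5b was called at 0.70, Ndufa2 at -0.68 and Cox6a2 at -0.53. The 3 respiratory calls were thus of both signs.

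The large families were called near the share of all features or below it. Of 104 solute carrier probes, 16 were called (15.4%; 11 positive), led in size by Slc4a8 at -1.40, Slc12a1 at 1.38, Slc44a5 at -1.16 and Slc35f1 at 1.11. Of 98 Zfp zinc finger probes, 14 were called (14.3%; 8 positive), led by Zfp365 at 1.18 and Zfp574 at -0.95. Of 73 probes of ubiquitin enzymes, 9 were called (12.3%; 3 positive), with Usp3 at 1.10, Fbxo30 at -1.07 and Fbxw19 at -1.05. A second Usp3 probe differed by 0.48 and 2 other Fbxo30 probes by -0.14 and -0.56, and none was called. Of 8 probes of the Toll pathway, 1 was called, the kinase Map3k7 at -0.81.

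Shares above that of all features were counted in smaller lists. Of 22 Rab GTPase probes, which direct vesicle traffic, 8 were called (36.4%; 3 positive), among them Rab36 at -1.14, Rab1b at 1.04 and Rab39b at -1.03, and the median of the list was -0.30. Both Rab40c probes were called, at -0.92 and -0.55. Of 53 collagen and matrix probes, 15 were called (28.3%; 6 positive), with Lamb2 of basement membranes at -1.51, Mmp11 at -1.37, Col8a2 at -1.19 and Adamts5 at 1.18. Of 29 cytokine and chemokine probes, 8 were called (27.6%; 2 positive), with Ccl9 at -1.39, Cxcr6 at -1.25 and Il17re at -1.15 against Ccr9 at 0.76 and Csf3r at 0.74. Il15ra was called at -1.44 from a probe in column 22, and after column centring it differed by -0.07 (limma adjusted p = 0.875). A second Il17re probe differed by 0.52 and 2 other Ccr9 probes by 0.28 and -0.67, and none was called. Of 33 probes of kinesins and related motors, 7 were called (21.2%, 2 positive), near the 19.0% of all features. They were led by Kif12 at -2.04 and Kif13a at -1.46. The other Kif13a probes differed by 0.11 and 0.25 and were not called. The median differences of the matrix, cytokine and kinesin lists were -0.20, 0.14 and 0.20. The cytokine and kinesin medians were thus positive, although most calls in these lists were negative. Of the list genes named by rule, column centring also ended the calls of Sel1l, Rev3l, Atp5b, Ndufa2, Cox6a2, Slc4a8, Zfp532, Fbxo30 and Adamts5. It also ended that of the Rab40c probe at -0.55, and turned no direction among them. Scaling each array to one spread ended the calls of Ern1, Sel1l, Sec31a, Rps12, Polk, Nbn, Rev3l, Slc16a1, Pfkp and Atp5b. It also ended those of Slc4a8, Slc35f1, Zfp365, Zfp574, Zfp41, Zfp532, Usp3, Fbxo30, Usp50 and Map3k7. Il15ra, Ccl9, Cxcr6, Rab36, Rab39b, Mmp11, Col8a2, the Mpo probe at 0.92 and the Rab40c probe at -0.55 lost theirs too. The other list genes named by rule kept their calls on scaling. The part of column centring or scaling in the counts of the lists was not tested.

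Probes of one gene seldom moved together. Of 629 genes with exactly 2 tested probes, both were called in 20, in 16 of them with one sign, 1 was called in 198 and neither in 411. Examples with one sign were Irs3, an insulin receptor substrate, at -2.16 and -1.71, the small GTPase Cdc42 at -1.88 and -2.09, and Aadat, an aminotransferase, at -1.86 and -2.05. Cyb561d2, Lhfpl2, Mpo and the ubiquitin ligase Herc3 had both probes called with opposite signs, with Herc3 at 1.71 and -0.89. Over the 589 accessions printed as 2 features, the differences correlated at r = 0.0365 (rho 0.0497), a description across genes. The paired spots of a feature, which lie in the same block, correlated at r = 0.780 over 7669 features. On the means of the 2 pmol arrays, too, the accessions printed as 2 features correlated at only r = 0.114 (rho 0.0393). Which of the probes under an accession measures the annotated gene was not checked here, and every value given for a gene is the value of the probe annotated with it.

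Control probes printed in every block gave 48 pairs of spots each. Gapdh, the glycolytic dehydrogenase used as a reference, had block medians of 0.54, 0.62 and 0.91 on replicates 1 to 3 and -1.31, -1.15 and -1.22 on replicates 4 to 6, a difference of -1.92 (exact permutation p = 0.1), and was lower in all 48 pairs. Pdia3, a disulphide isomerase of the endoplasmic reticulum, had -0.42, -0.29 and -0.20 against 0.51, 0.71 and 0.69, a difference of 0.94 (exact permutation p = 0.1), and was higher in all 48. Both are printed in column 1, and they moved in opposite directions. Gapdh features elsewhere on the array differed by 0.59, -1.04 and -1.39.

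The 9 unnamed control positions ranged as widely. They carried no symbol in any block, and whether each held 1 probe throughout was not checked. The position in row 15 of column 1 read 6.72, 6.73 and 6.57 against 3.85, 4.80 and 4.71. The position in row 1 of column 22 read -3.88, -5.15 and -4.51 against -1.51, -1.15 and -1.07. Its pairs scattered widely, with differences from -4.88 to 6.22, 45 of them positive and 2 negative. By the block medians the sets did not overlap at either position, and both positions lay closer to 0 in replicates 4 to 6. The position in row 11 of column 1 went from -1.84, -1.64 and -1.45 to 0.63, 0.82 and 0.81. For 9 of the 11 control positions the exact permutation p was 0.1, or 0.122 after Benjamini-Hochberg adjustment over the 11, and it was 0.2 and 0.3 for the other two.

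**Figure D5:**
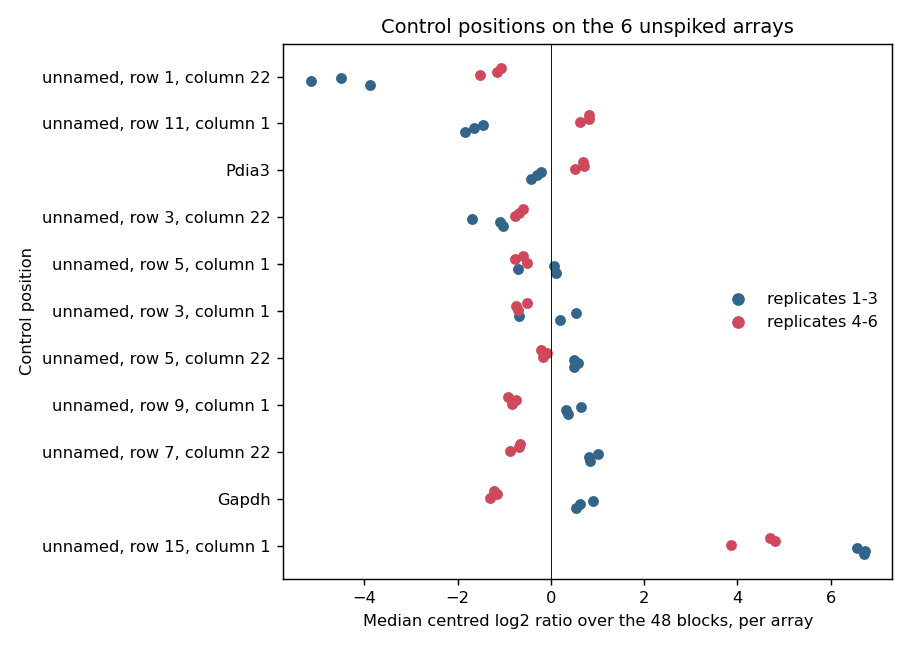
Each point is the median centred log2 ratio over 48 blocks of 1 control position on 1 array, with replicates 1 to 3 in blue and replicates 4 to 6 in red. Gapdh lies at 0.54 to 0.91 against -1.31 to -1.15 and Pdia3 at -0.42 to -0.20 against 0.51 to 0.71.

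Candidates for features moved by a spike were examined on the unspiked arrays. No list of the spiked genes was used, so whether the candidates are those genes was not checked. Candidates were the 100 highest and 100 lowest features on the 2 pmol arrays, which share no array with the 6. Of 99 tested candidates on the high side, 18 were called between the sets (18.2%), and of 99 on the low side 20 (20.2%), against 1457 of the 7661 other features (19.0%). Separation was taken as the median of the high candidates minus that of the low ones, divided by 2. It was 4.76 at 2 pmol. On the unspiked arrays it was 0.058, 0.048 and 0.086 for replicates 1 to 3. For replicates 4 to 6 it was 0.028, 0.024 and -0.016 (0.06 ± 0.02 against 0.01 ± 0.02, SD, n = 3 each, exact permutation p = 0.1). With the 50 highest and 50 lowest, the difference of the sets was 0.0031 in place of -0.052. The candidates were therefore called near the share of other features. Their separation on all 6 arrays was a small fraction of that at 2 pmol. The candidates were chosen as the extremes of the 2 pmol arrays, so that a larger separation there was favoured by the choice.

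Single candidates could still differ. Sox11, a transcription factor of neurons with a mean of -7.10 at 2 pmol, read 0.35, 0.17 and 0.55 against -1.38, -1.60 and -1.97 (difference -2.01, SE 0.20, limma adjusted p = 0.0173), while its second probe at spot 8336 differed by 0.19 and was not called. Cpsf6, which acts in cleavage of messenger RNA 3′ ends and had a mean of 8.04 at 2 pmol, differed by 0.90 (limma adjusted p = 0.0198). Galnt13, which starts mucin-type glycans and was the highest named candidate at 9.76, differed by -0.63 (limma adjusted p = 0.249) with replicate 3 not measured. The calcium pump Atp2b2, the ubiquitin receptor Fem1c and the kinase Tec differed by 0.18, -0.04 and 0.49 and were not called. Second probes of Galnt13 and Fem1c differed by 0.47 and 0.32, and neither was called. At 2 pmol the second probes of Sox11 and Galnt13 had means of 0.25 and -0.33, and that of Fem1c had a mean of -6.93.

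The same split of replicates was tested at the 5 spiked amounts that have 6 arrays, which share no array with the unspiked ones. It gave 84 calls at 0.05 pmol (1.06%), 528 at 0.1 pmol (6.67%), 7 at 0.25 pmol (0.0885%), 492 at 0.5 pmol (6.22%) and 0 at 0.75 pmol (0%), all by limma with adjusted p under 0.05. At 0.75 pmol, 1027 features had an unadjusted p under 0.05, against 3010 at 0 pmol. Across features the difference at 0 pmol correlated with that at these amounts at r = -0.0877, 0.185, -0.0805, 0.182 and -0.176, in the same order (rho -0.120, 0.226, -0.0878, 0.162 and -0.208). These are descriptions across features that share probes and positions. Of features called at 0 pmol and at the spiked amount, 6 of 20 at 0.05 pmol had one sign. At 0.1 pmol 71 of 123 did, and at 0.5 pmol 71 of 105. At 0.25 and 0.75 pmol 0 features were called at both.

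The grid share differed between replicates 1 to 3 and 4 to 6 at other amounts too, though not always in one direction. At 0.1 pmol it was 5.26 to 7.33% against 36.7 to 58.6%, and at 0.75 pmol 31.6 to 35.4% against 3.00 to 3.72%. At 0.25 pmol it was 20 to 31.9% against 2.92 to 7.49%. Coarse arrays were thus replicates 4 to 6 at 0 and 0.1 pmol and replicates 1 to 3 at 0.25 and 0.75 pmol. At 0.05 and 0.5 pmol the ranges overlapped.

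A test of the difference itself, the split at 0 pmol against its mean at the 5 spiked amounts, called 683 of 7831 features (8.72%; 409 positive and 274 negative; limma, adjusted p under 0.05). Of the 1492 features called at 0 pmol and tested here, 453 were among them (30.4%). Kirrel3 and Crtc3 were both called, at 3.16 and -3.56. Cblb, Rif1, Vegfa and Bmp10, all called at 0 pmol, did not pass this test.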

How the data were processed

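The authors deposited 1 table of log2 ratios per spot for 51 arrays; the log base and the upper limit were read from the values, and the authors' image analysis, background correction and normalization are not given in the sources used here. Gene symbols came from the platform annotation and were updated for 10766 spots through Entrez identifiers with RefSeq (GRCm38.p6, names only); probe sequences were not used here. Values at 16.61 or above were set missing, each array was centred on its median over spots other than controls, and spots 22 places apart were averaged. Controls were kept apart.

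Features measured on at least 2 arrays of each set were fitted with limma 3.58.1 (lmFit and eBayes, R 4.3.3) over the 6 arrays, and p-values were adjusted by Benjamini-Hochberg over all features; a call is an adjusted p under 0.05. The code was tested on simulated data. Measures with 1 value an array were compared by exact permutation tests, and summaries used Python 3.11.15, numpy 2.4.6, pandas 2.3.3 and matplotlib 3.10.9. With 3 arrays a set, the number of arrays limits the precision.

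Features were named by rule: the 12 highest and 12 lowest called differences with a symbol, and up to 2 each way without, among features measured on all 6 arrays and without overlap; the 3 highest and 3 lowest means called against 0 in both sets, and up to 3 each way of opposite sign; up to 4 called members of each of 18 gene lists; the control genes; and the 3 highest and 3 lowest named candidates. Other tested probes of genes named by this rule are given beside them. Rev1, Topbp1, Xrcc1, Xpc, Lig1, Ccr9, Csf3r and the examples of genes with both probes called fall outside the rule and were chosen after their values were seen. The lists and the groups compared were chosen with earlier results of these data known.

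Alternatives changed the centring, the scale, the use of paired spots, the upper limit, the samples in the fit and the moderation, and left out each array in turn. Centring or leaving out columns was added after the data were seen.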

Additional observations from a re-analysis of the deposited data

Results flagged for a closer look

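For 19 of the 28 features shown by array, the difference between replicates 4 to 6 and 1 to 3 at 0 pmol departed from the mean difference at the 5 spiked amounts (limma, adjusted p from 7.02e-06 to 0.0449). Of the genes higher in replicates 4 to 6, these departures in log2 units were Kirrel3 at 3.16, Trp53i13 at 2.65, Adgrl3 at 1.76, Brca2 at 1.49, Grip1 at 1.74, Mef2c at 1.50 and Bcl11a at 1.18. Of the genes lower in replicates 4 to 6, they were Crtc3 at -3.56, Dlk2 at -2.55, Acan at -2.61, Acrv1 at -2.55, Gtse1 at -2.41, Tectb at -2.10, Sprr3 at -2.72 and Dmp1 at -1.96. Among features without a symbol they were spot 4273 at 3.53, spot 1498 at 1.80, spot 13524 at -1.95 and spot 13388 at -2.14. The 28 features were chosen for their difference at 0 pmol, so that a departure in its direction was favoured by the choice.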

How the results depend on the processing

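Without centring, 6257 features were called between the sets, 6236 of them positive, 7842 for replicates 1 to 3 against 0, 6652 for replicates 4 to 6 against 0 and 7117 for the difference from the spiked amounts. The split at 0.05, 0.1, 0.25 and 0.75 pmol then gave 6713, 3505, 4321 and 679. Scaling gave 561, 1990 and 2463 calls for the first 3 comparisons, and 896 and 15 at 0.05 and 0.25 pmol. The first spot alone gave 901 calls between the sets and 395 for replicates 1 to 3 against 0, the second alone 890 and 401, both spots with duplicateCorrelation 2348 and 1651. A fit of all 51 arrays gave 472. Leaving out 1 array gave 0 to 935 calls between the sets, 1 to 425 for replicates 1 to 3 against 0 (1, 8 and 45 without replicates 2, 1 and 3), 2537 to 4099 for replicates 4 to 6 against 0 and 320 to 453 for the difference from the spiked amounts. Print-block centring (1717), centring on all spots (1577), the upper limit kept (1349), robust moderation (1457), features with both spots on all 6 arrays (1769), columns centred (1223) and columns 1 and 22 left out (1381) stayed within 1.5 times of 1495.

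With control spots included, the difference in upper-limit spots was 142 against 126. The difference in paired-spot correlation, 0.115, turned to -0.217 with the upper limit kept and -0.00703 with controls included. The candidate separation differed by 0.0031 with 50 a side, and by -0.06 to -0.04 leaving out 1 array. Vegfa turned to 0.557 with the upper limit kept, which also ended the calls of 9 other of the 28 features shown by array. Scaling each array to one spread ended the calls of 6 of the 28. These were Adgrl3, Crtc3, Gtse1, Hs1bp3 and the features at spots 1498 and 13388. Of the 28, 27 were not called without replicate 1 and 28 without replicate 5. The cause of these losses was not tested. In leave-one-out fits the smaller number of arrays cannot be told apart from the array left out.

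No paired analysis was possible for the unspiked arrays because replicates 1 to 3 and 4 to 6 share no number. For the difference from the spiked amounts, the replicate number as a block gave 706 calls against 683.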
